A study of Mus musculus with 54 samples.

Results

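The 10 transcripts described here are noncoding genes of the mouse followed across 7 tissues of mice that swam or did not: 9530091C08Rik, Phxr4, 2310067E19Rik, A330023F24Rik, 1700086D15Rik, B130024G19Rik, Lncpint, Gdap10 and the microRNA genes Mir598 and Mir505. They were found as the probe sets that the array's annotation gives to these symbols, and they had been chosen by their log2 change between swim and control arrays, since their signal was higher after swimming in 1 or more tissues. They are 10 of the 701 noncoding genes among the 18759 gene symbols on the array, and each has 1 probe set of its own. Because the difference between swim and control arrays chose them, that difference is given as a description, without a test. Tests are given for what the choice did not use: the protein-coding genes around the transcripts, tissue levels in control mice, and the spread between arrays of one group.

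All mice carried the C57BL6 background and were 14 weeks old, and no mutant allele or drug is named in the labels. The labels give the same protocol for every sample: mice aged 11 to 12 weeks were brought to swimming over 9 days in steps of 10 min, and then swam for 3 weeks in 2 sessions of 90 min a day with 4 h of rest between them. Liver had 3 control and 4 swim arrays and muscle had 4 and 3, and each of brain, kidney, spleen, visceral fat and subcutaneous fat had 4 of both kinds, which makes 54. What control mice did in place of swimming, the hour at which tissues were taken, whether tissues came from the same mice and whether animals were pooled are not stated, so p-values measure the spread between these arrays.

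Long noncoding RNAs are transcribed and often spliced like messenger RNAs but encode no protein, and many of them stay in the nucleus near the place where they are made. Some lie inside an intron or across the end of a protein-coding gene, so a probe there can read a separate transcript or unspliced RNA of the gene around it. MicroRNA genes give a hairpin precursor, often released from a longer host RNA, and the short mature microRNA lowers messenger RNAs that pair with its seed. The arrays measured total RNA, and the protocol does not separate mature microRNAs from their precursors.

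By the RefSeq gene table, 4 of the transcripts lie inside a protein-coding gene on its strand. 9530091C08Rik lies in Rora, which encodes the nuclear receptor ROR-alpha, and Phxr4 lies in Maml2, a coactivator of Notch. 1700086D15Rik lies in Arhgap44, which encodes a GTPase-activating protein, and Gdap10 lies in Nampt, the rate-limiting enzyme of NAD salvage. 2310067E19Rik lies in the transcription factor gene Nfib and Mir598 in Xkr6, and the table gives no strand for either. B130024G19Rik partly overlaps Nr2f2, which encodes the nuclear receptor COUP-TFII, on the opposite strand. A330023F24Rik is the host transcript of Mir29b-2 and Mir29c and lies between Cd34 and Cd46. Lncpint, known as a long noncoding RNA induced by p53 that binds the PRC2 complex, lies between Klf14 and Mkln1.

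The mature microRNAs of these loci are shown because the miR-29 pair shares its seed and miR-505 does not. The sequences are those of RefSeq on GRCm38.p6, printed 5′ to 3′ with bases 2 to 8, the seed, in capitals.
miR-29b-3p, cut from A330023F24Rik at chr1:195037091-195037113 on the plus strand: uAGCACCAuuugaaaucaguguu
miR-29c-3p, cut from A330023F24Rik at chr1:195037600-195037621 on the plus strand: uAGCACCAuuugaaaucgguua
miR-505-3p, at chrX:60394416-60394437 on the minus strand: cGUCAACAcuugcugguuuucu
miR-505-5p, at chrX:60394451-60394473 on the minus strand: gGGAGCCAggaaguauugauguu
The miR-29 family is known to lower messenger RNAs of collagens. The mature sequence of Mir598 was not matched in the sequence tables.

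The promoters of 4 of the transcripts that were higher in the most tissues are shown, from 250 bases before to 50 after the RefSeq start (GRCm38.p6, given on the strand of the gene). Capitals mark a match to a searched motif.
9530091C08Rik, chr9:68765096-68765395, plus strand: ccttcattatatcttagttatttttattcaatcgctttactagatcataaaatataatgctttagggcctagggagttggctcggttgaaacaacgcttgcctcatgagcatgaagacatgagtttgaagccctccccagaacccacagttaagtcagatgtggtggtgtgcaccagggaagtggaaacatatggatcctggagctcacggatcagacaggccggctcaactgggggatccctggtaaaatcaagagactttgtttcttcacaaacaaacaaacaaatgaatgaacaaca
Phxr4, chr9:13431111-13431410, plus strand: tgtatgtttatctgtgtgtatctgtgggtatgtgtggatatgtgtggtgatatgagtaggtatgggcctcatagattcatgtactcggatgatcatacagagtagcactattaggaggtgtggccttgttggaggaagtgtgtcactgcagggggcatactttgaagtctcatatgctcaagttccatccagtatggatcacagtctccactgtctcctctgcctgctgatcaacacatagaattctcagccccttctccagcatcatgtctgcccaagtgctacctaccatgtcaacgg
Lncpint, chr6:31218425-31218724, minus strand: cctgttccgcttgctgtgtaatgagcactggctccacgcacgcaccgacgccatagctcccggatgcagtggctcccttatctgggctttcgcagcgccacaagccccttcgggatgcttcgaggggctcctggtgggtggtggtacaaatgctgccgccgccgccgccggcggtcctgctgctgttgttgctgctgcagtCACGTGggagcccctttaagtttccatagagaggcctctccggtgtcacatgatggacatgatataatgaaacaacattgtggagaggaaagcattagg
A330023F24Rik, chr1:195017149-195017448, plus strand: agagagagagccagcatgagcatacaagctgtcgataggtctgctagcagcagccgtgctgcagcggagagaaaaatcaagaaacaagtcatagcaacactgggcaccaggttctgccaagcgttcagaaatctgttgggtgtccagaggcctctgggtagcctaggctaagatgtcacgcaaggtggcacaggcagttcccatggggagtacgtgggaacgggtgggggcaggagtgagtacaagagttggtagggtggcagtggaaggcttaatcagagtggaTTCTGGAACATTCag
On both strands of these windows the search was for the E-box CACGTG, the D-box TTANGTAA, the binding motif of ROR and REV-ERB AGGTCA, the CRE TGACGTCA, and the palindromic glucocorticoid element and the heat shock element by name. The Lncpint window holds an E-box at position -49 from the start, a motif present in 7.15% of 32851 such windows of all genes. The A330023F24Rik window holds TTCTGGAACATTC at position 36, a heat shock element on the minus strand, which 0.603% of all windows hold. The windows of 9530091C08Rik and Phxr4 held no match to these letters, which occur in 2.323% (D-box), 16.255% (ROR and REV-ERB motif), 0.009% (glucocorticoid element) and 1.79% (CRE) of all windows. A match is a run of letters and does not show binding.

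The median probe set signal of the 54 arrays lay between 45.92 and 118.65 intensity units. Marker genes of liver, kidney, brain, muscle, fat and B cells were highest on average in their own tissue, with B cell markers taken for spleen. Single arrays came close: B cell markers averaged 11.42, 11.49 and 11.41 in subcutaneous fat control arrays 18, 19 and 20, against 11.44 to 11.57 in spleen controls. Subcutaneous fat was less even than visceral fat: the mean log2 level of the fat markers (4 of 4 measured) ranged from 10.28 to 12.23 there and from 12.51 to 12.67 in visceral fat. Lymph node markers (2 of 3 measured) averaged 5.22 in control array 17 and 12.10 to 12.24 in the other 3 controls, and 5.54 to 11.86 in the swim arrays. Kidney markers (4 of 4 measured) averaged 13.11 in swim array 22, with Umod at 15.24. This was near the 13.45 to 13.55 of kidney arrays, where the other subcutaneous fat arrays gave 4.79 to 5.13. Muscle markers (4 of 4 measured) averaged 11.76 in swim array 23, with Ckm at 11.51, against 14.19 to 14.32 in muscle arrays. Single arrays of other tissues stood apart too. Brain control array 36 carried muscle markers at a mean of 8.26, against 5.74 to 6.54 in the other brain arrays, and liver control array 52 at 9.61, against 5.53 to 5.97 in the other liver arrays. Liver markers averaged 10.48 in spleen control array 26 (4.79 to 8.05 in the other spleen arrays) and 8.96 and 8.64 in muscle control array 42 and swim array 46 (5.38 to 7.20 in the other muscle arrays). For the transcripts and the genes that contain or overlap them, changes in subcutaneous fat are given with and without arrays 17, 22 and 23, which leaves 3 control and 2 swim arrays.

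Levels below are log2(signal + 16) after quantile normalization within a tissue, and a change is the mean of the swim arrays minus the mean of the control arrays on that scale, with the SE of the limma fit. The added 16 understates changes of low signals. A member is said to pass where limma's Benjamini-Hochberg adjusted p over all genes of the tissue was under 0.05, which repeats the choice and supports nothing. In visceral fat, 8 of the 10 passed as higher, where 11.3% of all genes did. In kidney 8 passed (10.8% of all genes), in brain 8 (0.43%), in muscle 7 (5.68%), in spleen 4 (7.04%), in liver 0 (1.84%) and in subcutaneous fat 0 (0%). With all arrays, none of the 10 passed as lower in any tissue, where 12.1% of all genes did so in visceral fat, 0% in subcutaneous fat, 2.16% in liver, 13.6% in kidney, 6.97% in spleen, 0.0516% in brain and 5.68% in muscle. In liver and subcutaneous fat, where limma called no member, 2394 of 11203 and 2489 of 11548 genes had an unadjusted p under 0.05.

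**Figure D1:**
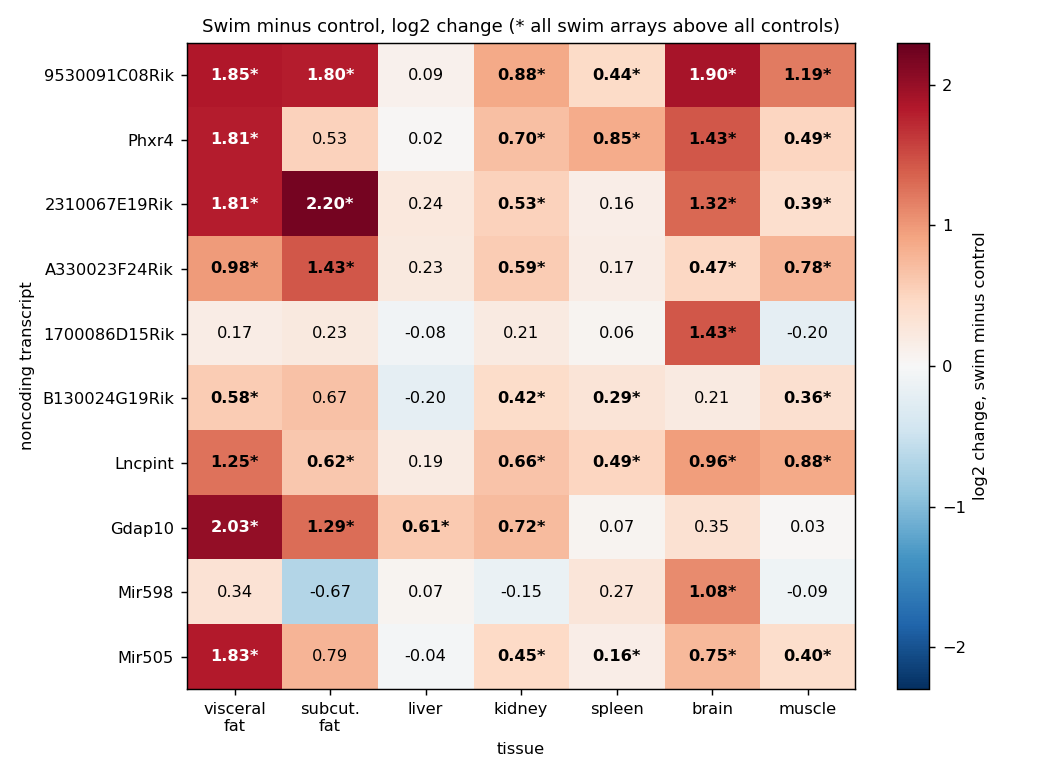
Log2 change (swim minus control) of each of the 10 transcripts in rows and each of the 7 tissues in columns, as colour and number. The largest value is 2.20 for 2310067E19Rik in subcutaneous fat, and the liver column lies between -0.20 and 0.61.

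The median change of the 10 transcripts was 1.53 in visceral fat, 1.02 in brain, 0.73 in subcutaneous fat, 0.56 in kidney, 0.40 in muscle, 0.22 in spleen and 0.08 in liver, beside medians over all tested genes between -0.032 and 0.052. All swim arrays lay above all control arrays in 42 of the 70 combinations of transcript and tissue. This count was 8 in visceral fat (13.3% of all genes), 5 in subcutaneous fat (3.54%), 1 in liver (9.93%), 8 in kidney (12.5%), 5 in spleen (12.8%), 8 in brain (6%) and 7 in muscle (12.9%). In no combination did all swim arrays lie below all control arrays, as they did for 13.9%, 5.52%, 10.7%, 15.2%, 11%, 6.06% and 15.7% of all genes in the same order of tissues. Of the 70 values, 66 could enter the fits after the filter on low probe sets. Just inside the threshold stood B130024G19Rik in spleen at 0.29, and just outside it Mir505 in spleen at 0.16, where the groups also did not overlap. The counts changed by more than 1.5 times on leaving out single arrays in 4 tissues. In brain 3 members passed without control array 33, 35 or 36 or swim array 39, and 4 without control array 34 or swim array 38. In muscle 3 passed without control array 41 or 43, 4 without control array 42 or 44 or swim array 45, 2 without swim array 47 and 1 without swim array 46. In subcutaneous fat 5 passed as higher without control array 17, and in liver 1 passed without control array 52. Without arrays 17, 22 and 23, 4 passed as higher in subcutaneous fat and Mir598 passed as lower. Fits that left out 1 subcutaneous fat array called 0 to 2084 of all genes as higher and 0 to 1892 as lower. The other settings there, which include leaving out these 3, called 0 to 3607 as higher and 0 to 3019 as lower. With 1 array left out, genes called higher numbered 14 to 57 in brain, 40 to 684 in muscle and 55 to 225 in liver.

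**Figure D2:**
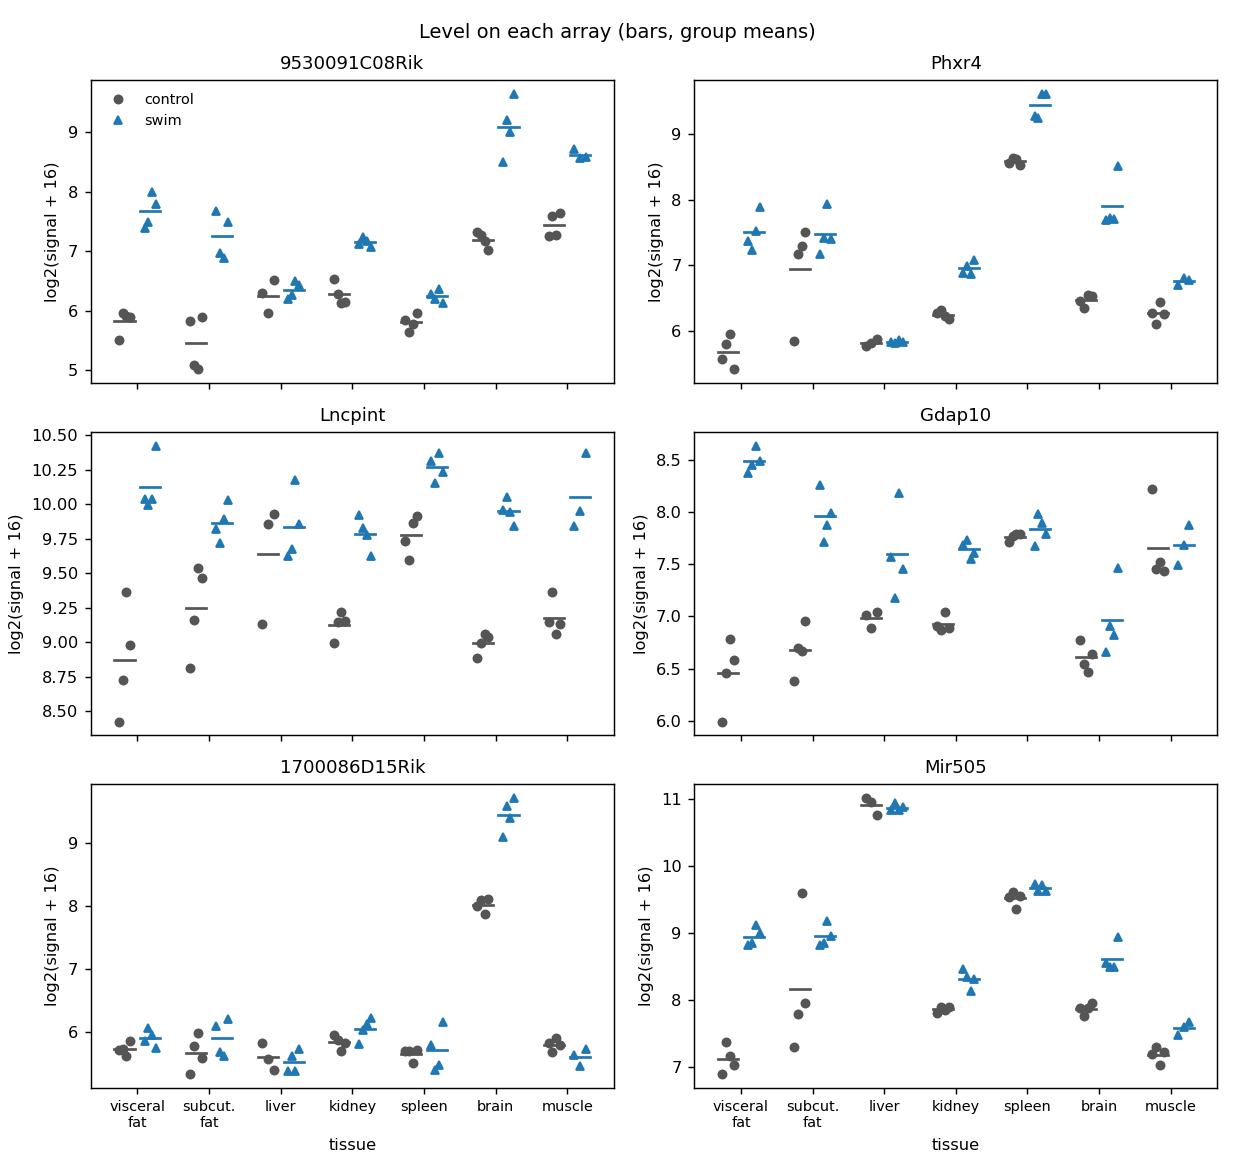
Log2(signal + 16) of 9530091C08Rik, Phxr4, Lncpint, Gdap10, 1700086D15Rik and Mir505 in every array, one panel per transcript. Control and swim arrays stand side by side in each tissue, with a bar at each group mean. In the panel of 1700086D15Rik the swim arrays stand above the control arrays in brain, and in the other tissues the groups overlap.

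Among the transcripts inside a coding gene, 9530091C08Rik, in Rora, was higher in 6 tissues with no overlap between the groups. In brain the control arrays read 7.32, 7.27, 7.17 and 7.02 and the swim arrays 8.5, 9.20, 9.01 and 9.65, a change of 1.90 (SE 0.21) or 3.72-fold. In visceral fat the controls read 5.52, 5.96, 5.92 and 5.89 and the swim arrays 7.39, 7.49, 8.0 and 7.79, a change of 1.85 (SE 0.15). The lowest swim array exceeded the highest control by more than the whole range of either control group. The median deposited signal in visceral fat was 35.3 in controls and 207.2 in swim arrays. Muscle controls read 7.25, 7.59, 7.26 and 7.64 and muscle swim arrays 8.72, 8.56 and 8.58, a change of 1.19 (SE 0.11). Kidney and spleen changed by 0.88 (SE 0.09) and 0.44 (SE 0.08), and liver, where the groups overlapped, by 0.09 (SE 0.14). In subcutaneous fat the controls read 5.83, 5.09, 5.02 and 5.90 and the swim arrays 7.67, 6.98, 6.90 and 7.49, again without overlap, a change of 1.80 and of 2.15 (SE 0.28) without the 3 arrays.

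Rora itself, measured by another probe set, can be tested, since it did not choose the transcripts. It rose by 0.34 (SE 0.11, limma adjusted p = 0.0485) in visceral fat and by 0.24 (SE 0.07, limma adjusted p = 0.0391) in kidney. Both calls were lost in 7 of the 8 fits that left out 1 array: in visceral fat without control array 1, 2, 3 or 4 or swim array 6, 7 or 8 (adjusted p up to 0.124), and in kidney without control array 9, 10, 11 or 12 or swim array 14, 15 or 16 (up to 0.0892). In brain, where 9530091C08Rik differed most, Rora differed by 0.10 (SE 0.19, limma adjusted p = 0.815) with overlapping groups. In muscle it differed by 0.09 (SE 0.09, limma adjusted p = 0.517). In subcutaneous fat Rora differed by 1.02 (SE 0.30, limma adjusted p = 0.205) with all arrays and passed at 1.51 (SE 0.14, limma adjusted p = 0.000611) without arrays 17, 22 and 23.

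Phxr4, in Maml2, was higher without overlap in visceral fat, kidney, spleen, brain and muscle. Visceral fat controls read 5.58, 5.81, 5.96 and 5.42 and swim arrays 7.37, 7.23, 7.53 and 7.88, a change of 1.81 (SE 0.15). In brain the controls read 6.46, 6.36, 6.55 and 6.54 and the swim arrays 7.68, 7.72, 7.70 and 8.51, a change of 1.43 (SE 0.18), with swim array 40 apart from the other 3. Spleen, the tissue of its highest level, read 8.56, 8.64, 8.62 and 8.53 in controls and 9.27, 9.24, 9.60 and 9.61 in swim arrays, a change of 0.85 (SE 0.09). Kidney and muscle changed by 0.70 (SE 0.06) and 0.49 (SE 0.09), and liver by 0.02 (SE 0.06). Subcutaneous fat gave 0.53 (SE 0.36) with overlap and -0.03 without arrays 17, 22 and 23. Control array 17, which lacked lymph node markers, read 5.85, and the other controls read 7.17 to 7.50. The part of lymph node RNA in the level of Phxr4 was not tested.

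Maml2 rose in spleen by 0.44 (SE 0.11, limma adjusted p = 0.0301) and in muscle by 0.44 (SE 0.07, limma adjusted p = 0.0131). The spleen call was lost without control array 25, 26, 27 or 28 or swim array 31 or 32 (adjusted p up to 0.0773), and the muscle call without swim array 46 (0.0523). In visceral fat and brain, where Phxr4 differed most, the tested probe set of Maml2 differed by 0.09 (SE 0.11, limma adjusted p = 0.577) and 0.24 (SE 0.15, limma adjusted p = 0.454). The 2 probe sets of Maml2 did not give the same value. Probe set 10598101 changed by 0.54 in visceral fat, 0.43 in kidney and 0.65 in brain, and probe set 10583207 by 0.09, 0.07 and 0.24. The brighter probe set of each tissue was the one tested. In subcutaneous fat Maml2 differed by -0.51 (SE 0.33, limma adjusted p = 0.342) and, without the 3 arrays, by -0.73 (SE 0.27, limma adjusted p = 0.0693).

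2310067E19Rik, in Nfib, had the largest change of the 70, in subcutaneous fat. There the controls read 5.84, 5.17, 4.93 and 5.25 and the swim arrays 7.81, 7.07, 6.90 and 8.20, a change of 2.20 (SE 0.33) or 4.58-fold, and of 2.77 (SE 0.19) without arrays 17, 22 and 23. Visceral fat controls read 5.85, 6.17, 6.31 and 5.80 and swim arrays 7.53, 8.01, 7.53 and 8.32, a change of 1.81 (SE 0.19). Brain controls read 6.35, 6.36, 6.20 and 6.09 and swim arrays 7.06, 7.67, 7.49 and 8.04, a change of 1.32 (SE 0.19). The groups did not overlap in these 3 tissues, in kidney (0.53, SE 0.12) or in muscle (0.39, SE 0.10). In liver they overlapped (0.24, SE 0.22), and in spleen the probe set was below the filter (0.16, SE 0.09).

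Nfib, a transcription factor known for its part in lung and brain development, rose in visceral fat by 0.43 (SE 0.07, limma adjusted p = 0.00377), although centring arrays on their medians turned this to -0.03. It rose in kidney by 0.23 (SE 0.05, limma adjusted p = 0.00846). Both calls were kept in every fit that left out 1 array. In brain Nfib differed by 0.20 (SE 0.11, limma adjusted p = 0.397). In subcutaneous fat it differed by 0.87 (SE 0.29, limma adjusted p = 0.206) with all arrays and passed at 1.44 (SE 0.15, limma adjusted p = 0.000874) without the 3.

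Gdap10, in Nampt, had its largest change in visceral fat: controls read 5.99, 6.46, 6.79 and 6.58 and swim arrays 8.37, 8.45, 8.63 and 8.48, a change of 2.03 (SE 0.15) or 4.09-fold. Kidney controls read 6.91, 6.87, 7.04 and 6.89 and swim arrays 7.69, 7.73, 7.55 and 7.61, a change of 0.72 (SE 0.06). Gdap10 is the only one of the 10 whose liver groups did not overlap, at 7.01, 6.89 and 7.04 in controls and 7.57, 7.17, 8.18 and 7.46 in swim arrays, a change of 0.61 (SE 0.21) that did not pass. Subcutaneous fat changed by 1.29 (SE 0.18) without overlap, and by 1.32 (SE 0.17) without the 3 arrays. Brain (0.35, SE 0.16), spleen (0.07, SE 0.07) and muscle (0.03, SE 0.20) overlapped.

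Nampt rose in kidney by 0.43 (SE 0.05, limma adjusted p = 0.000371), from 10.22, 10.08, 10.13 and 10.12 to 10.58, 10.58, 10.56 and 10.54. This call was kept in every fit that left out 1 array. In liver it rose by 0.59 (SE 0.10, limma adjusted p = 0.0239), from 9.64, 9.34 and 9.27 to 9.96, 9.92, 10.16 and 9.96. The liver call was lost without control array 50 or swim array 53, 54, 55 or 56, with an adjusted p up to 0.0758. In visceral fat Nampt differed by 0.22 (SE 0.08, limma adjusted p = 0.0816), and its groups overlapped. In subcutaneous fat it differed by 0.60 (SE 0.17, limma adjusted p = 0.203) with all arrays and passed at 0.76 (SE 0.17, limma adjusted p = 0.0146) without arrays 17, 22 and 23. With all arrays Nampt passed in liver and kidney, and Gdap10 was higher without overlap in both.

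1700086D15Rik, in Arhgap44, was higher in brain, at 8.0, 8.08, 7.87 and 8.11 in controls and 9.09, 9.58, 9.39 and 9.71 in swim arrays, a change of 1.43 (SE 0.13) or 2.69-fold. Its changes in the other 6 tissues lay between -0.20 and 0.23, all with overlapping groups, and in subcutaneous fat, liver and spleen the probe set was below the filter. Without the 3 arrays the subcutaneous fat value of 0.23 became 0.34 (SE 0.16). Arhgap44 did not pass in any tissue, and in subcutaneous fat it gave -0.31 with all arrays and -0.37 (SE 0.28, limma adjusted p = 0.307) without the 3. In brain it differed by 0.03 (SE 0.05, limma adjusted p = 0.769), while the transcript inside it differed by 1.43.

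Mir598, in Xkr6, was likewise higher in brain, at 7.16, 7.41, 7.38 and 7.40 in controls and 8.39, 8.34, 8.49 and 8.44 in swim arrays, a change of 1.08 (SE 0.07) or 2.11-fold. The spread of the 4 swim arrays was small beside the gap to the controls. Subcutaneous fat went the other way, from 6.92, 7.52, 7.89 and 7.72 to 6.75, 6.68, 6.98 and 6.97, a change of -0.67 (SE 0.22) with overlap through control array 17 alone, and of -0.83 (SE 0.17) without the 3 arrays. The other 5 tissues lay between -0.15 and 0.34 and overlapped.

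Xkr6, a member of the XK-related family of membrane proteins, read 11.72, 11.61, 11.83 and 11.69 in brain controls and 12.06, 12.45, 12.50 and 13.18 in brain swim arrays. All swim arrays lay above all controls, but the difference of 0.84 (SE 0.21, limma adjusted p = 0.119) did not pass. In subcutaneous fat it differed by -0.70 (SE 0.27, limma adjusted p = 0.216), with all swim arrays below all controls, and by -0.85 (SE 0.37, limma adjusted p = 0.106) without the 3. Xkr6 did not pass in any tissue.

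Mir505 was higher without overlap in visceral fat, kidney, spleen, brain and muscle. Visceral fat controls read 6.89, 7.37, 7.16 and 7.03 and swim arrays 8.81, 8.85, 9.12 and 8.99, a change of 1.83 (SE 0.11) or 3.56-fold. Brain read 7.87, 7.75, 7.87 and 7.95 in controls and 8.55, 8.48, 8.49 and 8.93 in swim arrays, a change of 0.75 (SE 0.11). Kidney and muscle changed by 0.45 (SE 0.07) and 0.40 (SE 0.08). Liver, the tissue of its highest level, stayed within -0.04 (SE 0.08), at 11.01, 10.95 and 10.76 in controls and 10.84, 10.93, 10.83 and 10.87 in swim arrays. In subcutaneous fat 3 controls read 7.29 to 7.95 and the fourth read 9.60, above all swim arrays (8.82 to 9.18). The change there was 0.79, and 0.43 (SE 0.53) without arrays 17, 22 and 23.

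B130024G19Rik, which overlaps Nr2f2 on the opposite strand, differed by less. Visceral fat read 5.71, 5.87, 5.6 and 5.67 in controls and 6.27, 6.40, 6.41 and 6.10 in swim arrays, a change of 0.58 (SE 0.09). Kidney read 6.90, 6.95, 6.98 and 6.79 in controls and 7.25, 7.31, 7.47 and 7.27 in swim arrays, a change of 0.42 (SE 0.06). Spleen (0.29, SE 0.08) and muscle (0.36, SE 0.08) did not overlap either. Brain (0.21, SE 0.18), subcutaneous fat (0.67, SE 0.25, and 0.74, SE 0.17, without the 3 arrays) and liver (-0.20, SE 0.11) did.

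Nr2f2 rose in kidney by 0.21 (SE 0.06, limma adjusted p = 0.0224) and in muscle by 0.35 (SE 0.08, limma adjusted p = 0.0379). The kidney call was lost without control array 9, 10 or 12 (adjusted p up to 0.0571), and the muscle call without control array 41, 43 or 44 or swim array 45, 46 or 47 (up to 0.0998). In visceral fat Nr2f2 differed by 0.01 (SE 0.15, limma adjusted p = 0.957). In subcutaneous fat it gave 0.52 (SE 0.24, limma adjusted p = 0.246) and, without the 3 arrays, 0.59 (SE 0.21, limma adjusted p = 0.0639). The labels do not say whether the labelling kept strand, so signal from the 2 strands of this locus cannot be told apart here.

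Among the transcripts between coding genes, A330023F24Rik, the miR-29 host, was higher without overlap in 5 tissues. Subcutaneous fat read 5.89, 5.87, 5.49 and 5.77 in controls and 7.25, 7.63, 6.72 and 7.16 in swim arrays, a change of 1.43 (SE 0.21), and of 1.41 (SE 0.17) without arrays 17, 22 and 23. Visceral fat read 5.56, 6.26, 6.38 and 6.18 in controls and 7.05, 6.77, 7.2 and 7.30 in swim arrays, a change of 0.98 (SE 0.18). Muscle read 7.64, 7.99, 7.96 and 8.36 in controls and 9.00, 8.69 and 8.59 in swim arrays, a change of 0.78 (SE 0.17). Kidney changed by 0.59 (SE 0.06) and brain by 0.47 (SE 0.08), while liver (0.23, SE 0.10) and spleen (0.17, SE 0.10) overlapped.

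Each of 2 further probe sets is annotated to A330023F24Rik together with 1 of its microRNAs, whose mature sequences are printed above. The probe set shared with Mir29b-2 changed by 0.92 in subcutaneous fat, 0.61 in visceral fat, 0.53 in brain, 0.49 in muscle, 0.38 in kidney, 0.38 in liver and -0.12 in spleen. The probe set shared with Mir29c changed by 0.88, 0.63, 0.47, 0.63, 0.38, 0.31 and -0.07 in the same order. Both were left out of the fits because they carry several symbols. In liver, where the transcript's own probe set overlapped, all swim arrays of both shared probe sets lay above all controls. Probe sets of Mir29a and Mir29b-1, which come from another chromosome and whose mature products share the AGCACCA seed, were below the filter, with group means between 4.20 and 5.55.

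Of the genes beside A330023F24Rik, Cd46, a regulator of complement, lies 1.1 kb away on the opposite strand. It rose in visceral fat by 0.91 (SE 0.11, limma adjusted p = 0.00106) and in kidney by 0.32 (SE 0.07, limma adjusted p = 0.0086). Both calls were kept in every fit that left out 1 array, and the visceral call under every other setting tried. Cd34, a surface marker of endothelial and stem cells, did not pass in any tissue.

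Lncpint was higher without overlap in visceral fat, subcutaneous fat, kidney, spleen, brain and muscle. Brain read 8.88, 8.99, 9.06 and 9.04 in controls and 9.96, 10.05, 9.95 and 9.85 in swim arrays, a change of 0.96 (SE 0.06). Visceral fat read 8.43, 8.73, 9.37 and 8.98 in controls and 10.04, 10.00, 10.04 and 10.42 in swim arrays, a change of 1.25 (SE 0.18). Muscle read 9.15, 9.36, 9.06 and 9.13 in controls and 9.84, 9.95 and 10.37 in swim arrays, a change of 0.88 (SE 0.13). Kidney, subcutaneous fat and spleen changed by 0.66 (SE 0.07), 0.62 (SE 0.19) and 0.49 (SE 0.08), and liver by 0.19 (SE 0.21) with overlap. Without the 3 arrays subcutaneous fat gave 0.53 (SE 0.18).

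Of the genes beside Lncpint, Klf14, a Krüppel-like transcription factor, fell by 0.71 in muscle (SE 0.16, limma adjusted p = 0.0336), a call lost in 5 of the 7 fits that left out 1 array (adjusted p up to 0.093). Mkln1 did not pass in any tissue. Brain, the tissue in which Lncpint had its smallest error, gave -0.07 (SE 0.16, limma adjusted p = 0.858) for Klf14 and -0.03 (SE 0.07, limma adjusted p = 0.833) for Mkln1.

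**Figure D3:**
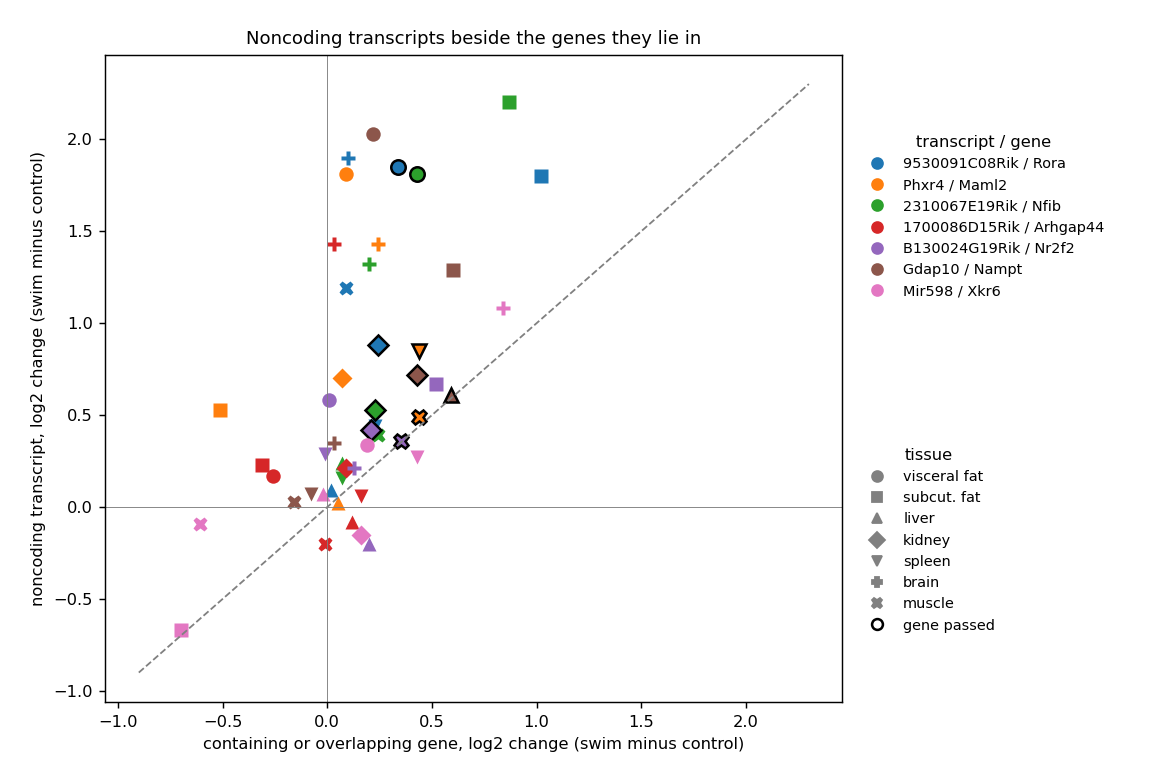
Log2 change (swim minus control) of each transcript set against that of the protein-coding gene that contains or overlaps it, one point per tissue. In brain 1700086D15Rik stands at 1.43 where Arhgap44 stands at 0.03, and 9530091C08Rik at 1.90 where Rora stands at 0.10.

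Over all 7 containing or overlapping genes that were measured, 4 passed as higher in kidney (10.8% of all genes passed as higher there), 2 in visceral fat (11.3%), 2 in muscle (5.68%), 1 in spleen (7.04%), 1 in liver (1.84%), 0 in brain (0.43%) and 0 in subcutaneous fat (0%). Where limma called none, 1 of the 7 had an unadjusted p under 0.05 in brain and 4 in subcutaneous fat. Without subcutaneous fat array 17 the count there was 3, and without arrays 17, 22 and 23 it was 3, those of Rora, Nfib and Nampt. Over all genes there, fits without 1 array called 0 to 2084 as higher, and the other settings 0 to 3607. Without control array 1, 2, 3 or 4 or swim array 6 or 7 the visceral fat count was 1. The kidney count was 2 without control array 9, 10 or 12. The liver count was 0 without the arrays named for Nampt, and the spleen count 0 without those named for Maml2 and 2 without swim array 30. The muscle count was 1 without control array 41, 43 or 44 or swim array 47, and 0 without swim array 46. No difference between a transcript's change and its containing gene's change was tested, because the transcript's change had chosen it.

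The nearest coding genes on either side lay at unlike distances, from 1.1 kb (Cd46) to 1616.1 kb (Arrdc4). Among them, Vps13c, a lipid transfer protein 767.6 kb from 9530091C08Rik, rose in visceral fat by 0.60 (SE 0.09, limma adjusted p = 0.00225) and in kidney by 0.42 (SE 0.05, limma adjusted p = 0.000804). Ice2, 624.6 kb away on the other side, rose in kidney by 0.18 (SE 0.05, limma adjusted p = 0.0215). Sypl, beside Gdap10, rose in visceral fat by 0.24 (SE 0.07, limma adjusted p = 0.0353), a direction that turned to -0.06 with values as deposited and to -0.18 with arrays centred on their medians. Besides Klf14, described above, the neighbours that fell were Elac2 in kidney (-0.19, SE 0.05, limma adjusted p = 0.0292), Ccdc71l in muscle (-0.33, SE 0.07, limma adjusted p = 0.0251) and Pinx1 in visceral fat (-0.43, SE 0.11, limma adjusted p = 0.0199). None of 16 tested neighbours passed in brain, none of 15 in spleen and none of 14 in liver with limma, where 1, 8 and 2 had an unadjusted p under 0.05. Of the 20 calls over containing, overlapping and neighbouring genes, 10 were of neighbours, and 7 were kept in every fit that left out 1 array: those of Vps13c, Nfib and Cd46 in visceral fat and kidney, and that of Nampt in kidney.

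Whether a transcript and a gene around it varied together was measured apart from swimming, in the 27 control arrays after removing tissue means, over 24 pairs with adjustment over the pairs. Mir598 and Xkr6 gave Pearson r = 0.72 (permutation p = 0.00295, adjusted 0.0703) and Spearman coefficient = 0.70 (permutation p = 0.00191, adjusted 0.0458), and r = 0.69 without the 2 arrays farthest from the median of Xkr6. B130024G19Rik and Nr2f2 gave r = 0.70 (permutation p = 0.00586, adjusted 0.0703), Spearman coefficient = 0.63 (permutation p = 0.00684, adjusted 0.0821) and r = 0.63 without 2 arrays. By Pearson no pair passed, and 3 pairs had an unadjusted permutation p under 0.05. The subcutaneous fat arrays carry much of the spread. Without them, r over the other 23 arrays was 0.77 (permutation, adjusted p = 0.00996) and 0.84 (permutation, adjusted p = 0.00264) for these 2 pairs.

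In normalized control arrays, the transcripts with the largest changes and a measured containing gene did not show such a relation. For some of them this depended on the scaling. 9530091C08Rik and Rora gave r = 0.31 and Spearman coefficient = 0.14 (permutation, adjusted p = 0.86 and 0.924), and r = -0.08 without 2 arrays. Phxr4 and Maml2 gave r = 0.67 and Spearman coefficient = 0.06 (permutation, adjusted p = 0.399 and 0.924), and r = -0.03 without 2 arrays, so that this value rests on those 2. Gdap10 and Nampt gave r = -0.20 and Spearman coefficient = 0.03 (permutation, adjusted p = 0.489 and 0.924). 2310067E19Rik and Nfib gave r = 0.56 and Spearman coefficient = 0.18 (permutation, adjusted p = 0.364 and 0.872), and r = 0.17 without 2 arrays. With values as deposited, r was 0.75 for Maml2, 0.54 for Nfib, 0.41 for Nampt and 0.13 for Rora (permutation, adjusted p = 0.00816, 0.0185, 0.134 and 0.704). Spearman coefficients there were 0.63, 0.63, 0.54 and 0.21 (permutation, adjusted p = 0.00912, 0.00876, 0.0381 and 0.373). In the 27 swim arrays r was 0.82 for Rora, 0.80 for Maml2 and 0.78 for Nr2f2 (permutation, adjusted p = 0.0253 for each). Without 2 arrays these were 0.65, 0.58 and 0.63. Their Spearman coefficients of 0.68, 0.69 and 0.57 did not pass (permutation, adjusted p = 0.085, 0.0734 and 0.085). Mir598 and Xkr6 gave r = 0.30 and Spearman coefficient = 0.36 in the swim arrays (permutation, adjusted p = 0.314 and 0.347).

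Tissue levels in control mice did not enter the choice and were tested over the 27 control arrays normalized together. All 10 transcripts differed between tissues by limma's F test, as did 99.2% of 14928 genes. 1700086D15Rik was highest in brain, at 7.82 (SD 0.12, n = 4) against 6.03 (SD 0.12) in muscle, the next tissue (difference 1.79, limma adjusted p = 1.1e-12), and its other 6 tissues did not differ from their neighbours in the order. Phxr4 was highest in spleen, at 8.70 (SD 0.06, n = 4) against 6.91 (SD 0.80) in subcutaneous fat (1.79, limma adjusted p = 4.71e-07), and no other neighbours in its order, down to 5.74 in visceral fat, were apart. Mir505 was highest in liver, at 10.68 (SD 0.11, n = 3), then spleen at 9.78 (0.89 lower, limma adjusted p = 0.0149), then subcutaneous fat at 8.21 (SD 1.09; 1.57 lower than spleen, limma adjusted p = 8.66e-05).

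A330023F24Rik fell from tissue to tissue, with brain at 8.73 (SD 0.14), muscle at 8.28, kidney at 7.67, liver at 7.46, spleen at 6.70, visceral fat at 6.13 and subcutaneous fat at 5.65. Each step passed limma's pairwise test except kidney to liver (0.21, adjusted p = 0.276). 9530091C08Rik was highest in muscle, at 7.78 (SD 0.19) against 6.91 in brain (0.87, limma adjusted p = 5.74e-05), and its lower 6 tissues were not separated from their neighbours. 2310067E19Rik was highest in liver (7.24) and muscle (7.10), which did not differ (0.15, limma adjusted p = 0.429), above kidney (6.14). B130024G19Rik was highest in kidney, at 6.87 against 6.42 in spleen (0.45, limma adjusted p = 0.0134), and liver (6.20) stood above visceral fat (5.77).

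Lncpint was highest in spleen, at 10.08 (SD 0.16) against 9.60 in liver (0.49, limma adjusted p = 0.0251), and fell to 8.82 in visceral fat without a further step between neighbours. Gdap10 was highest in muscle (7.98) and spleen (7.76), which did not differ (0.23, limma adjusted p = 0.175), and spleen stood above liver (7.25; 0.51, limma adjusted p = 0.00709). Mir598 ran from 7.82 in muscle to 6.64 in visceral fat with no pair of neighbours apart. The highest tissue stayed the same in 31 or more of 33 settings for each transcript, those settings being other scalings, pseudocounts, no filter, the swim arrays and each control array left out. In bulk tissue, fewer cells of a type and less RNA per cell cannot be told apart.

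**Figure D4:**
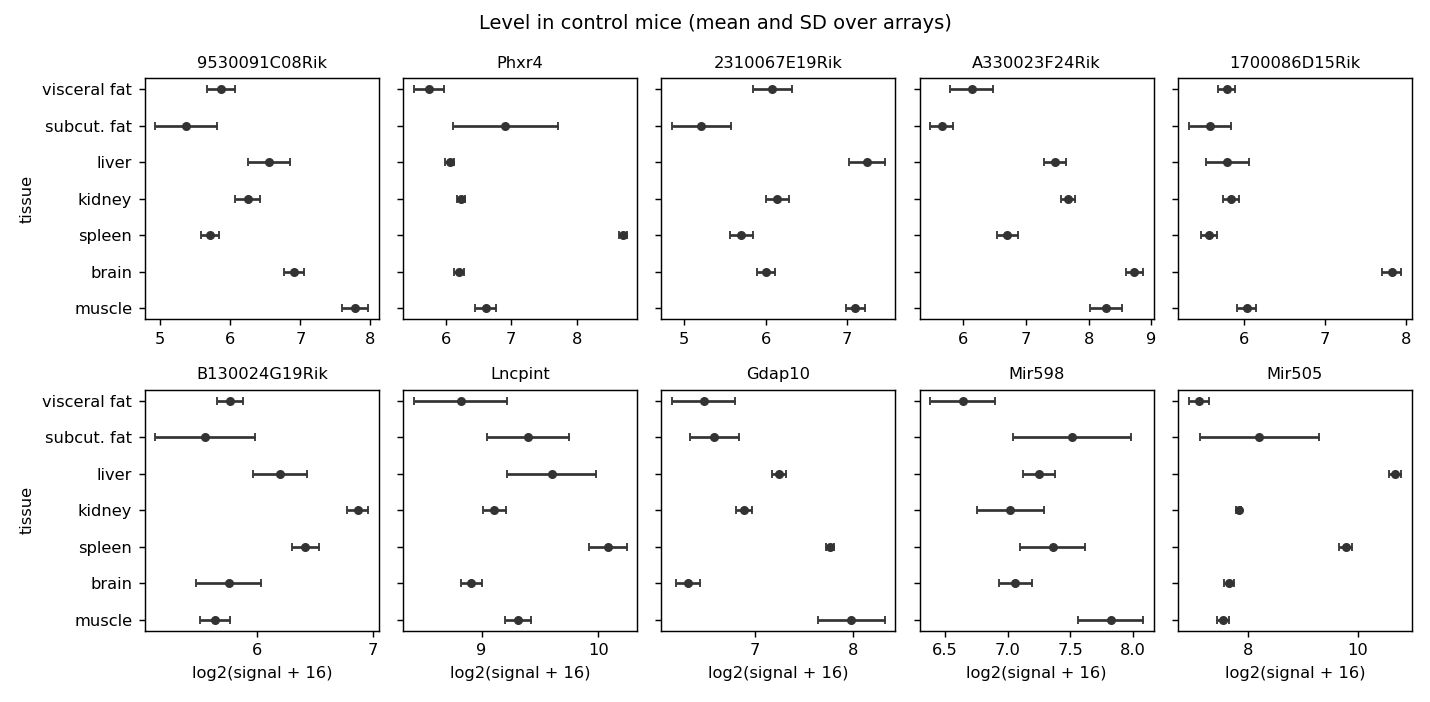
Log2(signal + 16) of each transcript in the control arrays of the 7 tissues, normalized together, with a point at the mean of each tissue and bars for the SD over arrays. The brain point of 1700086D15Rik, the spleen point of Phxr4 and the liver point of Mir505 stand above those of their other tissues.

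The genes whose levels followed each transcript most closely over the 27 control arrays are given as a description, and these correlations span the same 7 tissues. For 1700086D15Rik these were Cyp4x1 (r = 0.984), Adra2c (0.981) and Shisal1 (0.978). For Phxr4 they were Lmnb1 (r = 0.967), a lamin of the nuclear envelope, Zup1 (0.963) and Tasor2 (0.963). For 9530091C08Rik they were Pstk (r = 0.951), Ppm1l (0.934) and Atg9a (0.933). The nearest gene of each other transcript was Fbxo3 for 2310067E19Rik (r = 0.946), Cdc37l1 for A330023F24Rik (0.943), Clec1b for Mir505 (0.936), Ubr2 for Gdap10 (0.918), Slc15a4 for Lncpint (0.898), Ceacam19 for Mir598 (0.896) and Fbxo7 for B130024G19Rik (0.894). None of the 30 genes of closest pattern is one that contains or neighbours a transcript.

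The signal range of an array, the interquartile range of log2(deposited signal + 16), was narrower in swim than in control arrays of spleen, at 2.73 to 3.05 against 3.11 to 3.40 (difference -0.35, exact permutation p = 0.0286, adjusted over 7 tissues 0.2). A p of 0.0286 is the smallest that 4 against 4 arrays allow. The difference was -0.31 in visceral fat (exact permutation p = 0.0571), -0.28 in brain (0.0857), -0.19 in muscle (0.286), -0.09 in liver (0.571), 0.04 in kidney (0.886) and 0.29 in subcutaneous fat (0.229). In visceral fat, brain and muscle, where many of the transcripts were higher, the range was lower on average, and in kidney, where 8 passed, the groups had means of 3.21 and 3.25.

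Within the control arrays, tissue means removed, Mir598 followed the range: Pearson r = -0.82 and Spearman coefficient = -0.82 (permutation, p = 2e-05 and 3e-05, adjusted over the 10 transcripts 2e-04 and 3e-04), and r = -0.77 without the 2 arrays of most distant range. The relation was r = -0.68 in the swim arrays (permutation, adjusted p = 0.0033) and -0.77 without subcutaneous fat (permutation, adjusted p = 0.0021), but -0.23 with values as deposited (permutation, adjusted p = 0.794). Phxr4 gave r = -0.55 (permutation, adjusted p = 0.056) and Spearman coefficient = -0.54 (permutation, adjusted p = 0.0359), which fell to r = -0.29 without 2 arrays. The other 8 gave r between -0.45 and 0.32 and did not pass. With the range as a covariate in the brain fit, the changes were 2.12 for 9530091C08Rik, 1.52 for 2310067E19Rik, 1.44 for 1700086D15Rik, 1.31 for Phxr4, 0.98 for Mir598, 0.92 for Lncpint and 0.64 for Mir505, and 2 of the 10 passed.

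**Figure D5:**
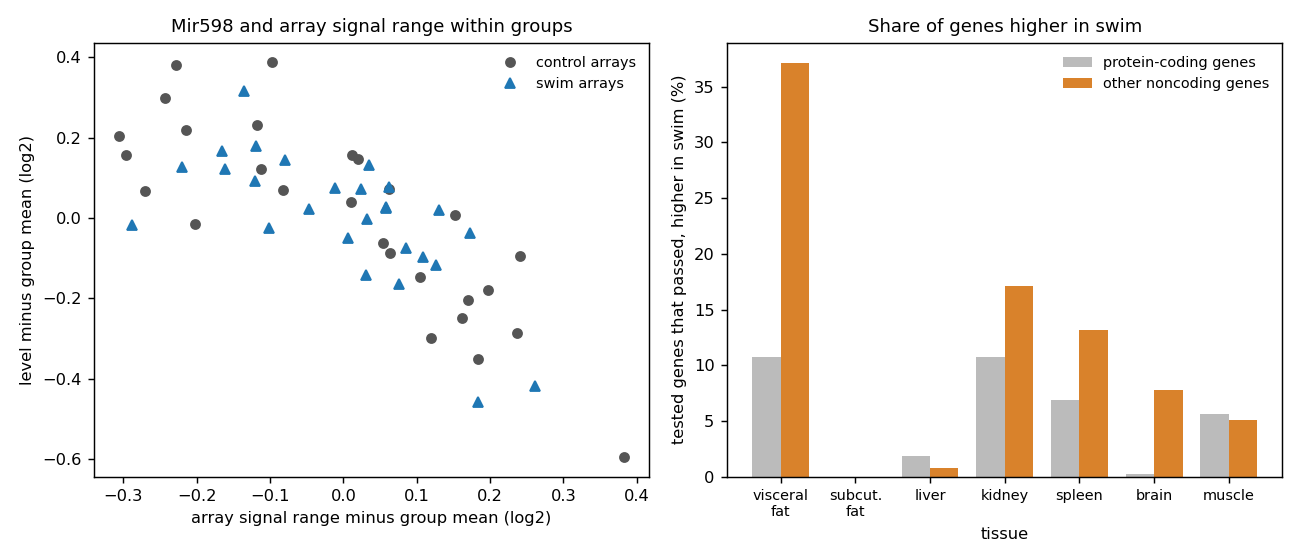
Left, level of Mir598 in each array minus its group mean, against the signal range of the array minus its group mean, for control and swim arrays. Right, share of genes that passed as higher in swim among noncoding genes without the 10 transcripts and among coding genes, which is 37.1% against 10.7% in visceral fat and 7.78% against 0.195% in brain.

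Noncoding genes other than the 10 passed as higher more often than coding genes in 4 tissues, and these shares are given as counts without a test. They were 85 of 229 (37.1%) in visceral fat against 10.7% of coding genes, 37 of 217 (17.1%) in kidney against 10.7%, 34 of 257 (13.2%) in spleen against 6.87% and 20 of 257 (7.78%) in brain against 0.195%. In muscle they were 13 of 258 (5.04%) against 5.63%, and in liver 2 of 254 (0.787%) against 1.87%. In subcutaneous fat limma called 0 of 211, of which 37 had an unadjusted p under 0.05. Noncoding genes that lie, as 4 of the transcripts do, inside a coding gene on its strand passed as higher in 9 of 18 cases in visceral fat. The counts were 5 of 19 in kidney, 6 of 30 in spleen, 3 of 23 in brain and 2 of 23 in muscle, where 2 passed as lower. Limma called 0 of 25 in liver and 0 of 13 in subcutaneous fat, with 5 and 3 at an unadjusted p under 0.05. Noncoding genes not inside a coding gene passed as higher in 33.8% of cases in visceral fat, 15.6% in kidney, 12.1% in spleen, 8.99% in brain, 4.73% in muscle and 1.26% in liver. Of 48 listed known long noncoding RNAs, 12 to 15 could be tested in a tissue. They passed as higher in 6 of 12 cases in visceral fat (median change 0.46), led by Firre (1.14, SE 0.12, limma adjusted p = 0.000468), Airn (1.12, SE 0.12, limma adjusted p = 0.000541) and Malat1 (1.02, SE 0.19, limma adjusted p = 0.00643). In kidney 4 of 12 rose and 1 fell (median 0.21), although with values as deposited none of these passed. Spleen had 2 of 12 higher (0 without control array 25 or 27 or swim array 31 and 1 without control array 26), and muscle 1 of 14 higher and 1 lower (0 without swim array 46 or 47 and 1 without control array 41 or 43). Limma called 0 of 15 in brain and 0 of 13 in liver, with 5 and 1 at an unadjusted p under 0.05.

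Genes of microRNA processing rose in 9 of 16 cases in visceral fat (median change 0.28; 4 passed with arrays centred on their medians and 1 with values as deposited). Of all genes 11.3% passed as higher in visceral fat, 10.8% in kidney, 7.04% in spleen, 0.43% in brain and 5.68% in muscle. As lower, 13.6% of all genes passed in kidney and 5.68% in muscle. In kidney 6 of 16 rose and 1 fell (median 0.13), with 7 calls in all, 4 without control array 10 or swim array 15 and 3 without swim array 16. With values as deposited none of the kidney calls was left, with 1 fit of all arrays 1, and with arrays centred on their medians or no filter 4. Ago3, an Argonaute protein that carries microRNAs, rose in visceral fat by 0.49 (SE 0.08, limma adjusted p = 0.00318), in kidney by 0.33 (SE 0.06, limma adjusted p = 0.00513), in spleen by 0.29 (SE 0.06, limma adjusted p = 0.0171) and in brain by 0.45 (SE 0.06, limma adjusted p = 0.022). Its brain call, the only one of 17 listed genes there, was lost without control array 33, 34, 35 or 36 or swim array 38 or 39, as deposited, centred and with the range as a covariate. In spleen 3 of 16 rose (0 passed with arrays centred or with the signal range as a covariate), in muscle 3 rose and 1 fell (0 to 2 calls without control array 41, 43 or 44 or swim array 46 or 47, 0 as deposited or with that covariate and 1 centred or without the filter), and in liver limma called 0 of 16, with 1 at an unadjusted p under 0.05.

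Of 22 measured genes with known miR-29 sites, many of them collagens and other matrix genes, 7 fell and 2 rose in muscle (median change -0.17), where the miR-29 host differed by 0.78. Col4a1 fell by 0.86 (SE 0.12, limma adjusted p = 0.0105), Col5a3 by 0.79 (SE 0.09, limma adjusted p = 0.00769) and Col15a1 by 0.54 (SE 0.13, limma adjusted p = 0.0394). Without muscle swim array 46 the number of calls went from 9 to 4. In visceral fat, where the host differed by 0.98, 4 of 22 rose and none fell (median 0.01), among them Col15a1 by 0.60 (SE 0.12, limma adjusted p = 0.0071), and none passed with values as deposited or with the range as a covariate. In kidney 2 of 21 rose and 5 fell (median -0.05; none passed as deposited or in 1 fit of all arrays), and in spleen 1 of 20 rose and 5 fell (median 0.05; 3 calls without control array 25 or 27 or swim array 31, 1 in 1 fit of all arrays and none with the range as a covariate). Limma called 2 of 19 in liver, both lower (0 or 1 without control array 49 or 50 or swim array 53, 54, 55 or 56), and 0 of 14 in brain, where 4 had an unadjusted p under 0.05. Over all genes, 5.68% passed in each direction in muscle. Those higher and lower were 11.3% and 12.1% in visceral fat, 10.8% and 13.6% in kidney, 7.04% and 6.97% in spleen, and 1.84% and 2.16% in liver.

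Among p53 targets, the group to which Lncpint is known to belong, 1 of 17 rose and 3 fell in visceral fat (median 0.00; 2 calls without control array 4 or swim array 7). Over all genes there, 11.3% passed as higher and 12.1% as lower. Cdkn1a, the p21 inhibitor of the cell cycle, fell by 1.82 there (SE 0.20, limma adjusted p = 0.000641), by 1.25 in kidney (SE 0.15, limma adjusted p = 0.000546) and by 1.73 in liver (SE 0.35, limma adjusted p = 0.0371). The liver call was lost in each fit that left out 1 array other than control array 52, where 2 listed genes passed. Kidney had 1 of 17 higher and 3 lower, and muscle 0 of 16 higher and 4 lower (1 call without swim array 46). Over all genes, 10.8% passed as higher and 13.6% as lower in kidney, and 5.68% in each direction in muscle. In spleen 7.04% of all genes passed as higher. Spleen had 2 of 18 higher (1 without control array 26 or 27 or swim array 31 or 32 and 4 without swim array 30), and limma called 0 of 14 in brain, with 4 at an unadjusted p under 0.05. Genes of PRC2 and its partners, which Lncpint binds, passed as higher in 2 of 10 cases in visceral fat (11.3% of all genes). They did so in 1 of 9 in kidney (10.8%), 1 of 10 in spleen (7.04%) and 1 of 10 in muscle (5.68%). Limma called 0 of 9 in brain (0.43%) and 0 of 10 in liver (1.84%), with 0 and 2 at an unadjusted p under 0.05. These counts went to 0 without visceral fat control array 4 or swim array 7, kidney control array 9 or 12 or swim array 13, and muscle control array 41 or 43 or swim array 46 or 47. The spleen count was 2 without swim array 30, and the visceral count 1 without control array 1 or swim array 6 or 8. With values as deposited no gene of PRC2 and its partners passed in visceral fat, kidney or muscle. With the signal range as a covariate none passed in visceral fat, spleen or muscle, and no p53 target passed in spleen. Genes of the ganglioside-induced and per-hexamer families, whose names Gdap10 and Phxr4 carry, passed in no tissue by limma, with 1 at an unadjusted p under 0.05 in spleen.

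Clock genes moved in most of the tissues and are given because Rora is one of them. In visceral fat 10 of 16 rose and 4 fell, in kidney 10 of 15 rose and 3 fell, in liver 7 of 16 rose and 4 fell, in muscle 7 of 16 rose and 3 fell, and in spleen 4 of 12 rose, of which none passed with the signal range as a covariate. In kidney 6 clock genes passed with values as deposited and 7 in 1 fit of all arrays. Per3, a repressor of the clock, rose by 2.09 in visceral fat (SE 0.08, limma adjusted p = 1.55e-06) and by 2.03 in liver (SE 0.24, limma adjusted p = 0.00783). In brain limma called 0 of 16, with 6 at an unadjusted p under 0.05, and 2 without swim array 37. There Per3 differed by 0.48 (SE 0.08, limma adjusted p = 0.0543), Per2 by 0.75 (SE 0.14, limma adjusted p = 0.062) and Ciart by 0.56 (SE 0.12, limma adjusted p = 0.0832), and all swim arrays lay above all controls for each of these 3 genes. Liver had 11 clock calls, 7 without swim array 54. Muscle had 10 clock calls, 5 without swim array 46 and 6 without swim array 47. In subcutaneous fat limma called none of the genes of these lists, with 10 of 16 clock genes at an unadjusted p under 0.05. Without arrays 17, 22 and 23 the calls there were 12 of clock genes, 14 of genes with miR-29 sites, 8 of p53 targets, 6 of known long noncoding RNAs, 3 of microRNA processing and 2 of PRC2 and its partners. The alternative settings in subcutaneous fat, this among them, called 0 to 3607 of all genes as higher and 0 to 3019 as lower.

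Markers of other cell types moved with the groups in some of the tissues, and their values are mean log2 levels of a list. Macrophage markers (4 of 4 measured) were lower in all swim arrays than in all control arrays of kidney (6.74 to 6.91 against 7.33 to 7.40), brain (6.21 to 6.74 against 6.79 to 7.0), liver (7.65 to 8.13 against 8.56 to 8.69), spleen (8.89 to 9.35 against 9.52 to 9.66) and subcutaneous fat (8.06 to 8.65 against 8.72 to 9.59). In spleen neutrophil markers (4 of 4 measured) lay at 5.66 to 7.04 in swim and 8.87 to 9.85 in control arrays, and T cell markers (3 of 3) at 9.95 to 10.30 and 9.74 to 9.86. In visceral fat, where the median change of the transcripts was largest, macrophage markers lay higher on average, at 8.57 to 9.27 in swim and 7.80 to 8.64 in control arrays, with overlap. Erythroid markers in subcutaneous fat lay at 6.06 to 8.0 in swim and 5.07 to 5.94 in control arrays, and liver markers in kidney at 7.15 to 8.40 and 7.02 to 7.06. Their part in the levels of the 10 transcripts was not tested.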

How the data were processed

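Total RNA of 54 tissue samples was labelled as biotin cRNA and hybridised to Affymetrix gene arrays, per the labels' protocols. The deposited values are linear intensity values of 25917 probe sets. The processing notes of the submitters name PLIER and limma, whose versions and settings, like the genome build, are not given in the sources used here. Arrays of one group differed in scale, so log2(signal + 16) was quantile normalized within each tissue. The array annotation gives 21086 probe sets 1 symbol, 1867 several and 2964 none, and only the first kind was tested. Within a tissue the lowest 40% of probe sets were left out and the brightest stood for its gene. Swim and control arrays were compared per tissue with limma 3.58.1 in R 4.3.3 (lmFit and eBayes, two-sided, Benjamini-Hochberg over all genes, threshold 0.05). Tissue levels used limma's F test and 21 pairwise contrasts over the 27 control arrays. Relations within groups used residuals from tissue means and 100000 two-sided permutations within tissue, and signal ranges an exact two-sided permutation test. The fits were tested on simulated data. The number of arrays limits the precision, since read depth does not apply.

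The members and lists were chosen with earlier results of these data known. All 10 members are named. The genes around them are every RefSeq gene that overlaps one and the nearest coding gene on each side, matched by identifier for 21057 probe sets and by symbol or synonym for 29, and 1700086D15Rik was matched by symbol. Genes of like pattern are the 3 of highest correlation, and listed genes are up to 4 per list called in most tissues. Alternatives were values as deposited, arrays centred on medians, pseudocounts of 1 and 64, no filter, 1 fit of all arrays, the signal range as a covariate, eBayes with trend and robust options (statmod 1.5.0), swim in place of control arrays, and each array left out. Leaving out subcutaneous fat arrays 17, 22 and 23, or all of that tissue from the relations, was chosen after seeing the data. Sequences come from RefSeq tables of GRCm38.p6, whose positions were not tied to the probe sets. Tables were handled in Python 3.11.15 with pandas 2.3.3 and plots drawn with matplotlib 3.10.9.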

Additional observations from a re-analysis of the deposited data

Results flagged for a closer look

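Of 120 groups of 4 arrays checked over the 10 transcripts, 9 held an array far from the other 3 by Dixon's criterion, which chance meets in about 5% of groups. In visceral fat 9530091C08Rik read 5.52 in control array 1 (5.89 to 5.96 in the others), and Lncpint read 10.42 in swim array 8 (10.00 to 10.04). In brain Phxr4 read 8.51 in swim array 40 (7.68 to 7.72), and Mir505 read 8.93 in the same array (8.48 to 8.55). Without that array the brain changes were 1.23 for Phxr4 and 0.65 for Mir505, and 7 of the 10 transcripts passed. Mir598 read 7.16 in brain control array 33 (7.38 to 7.41) and 7.05 in spleen control array 28 (7.47 to 7.56). In spleen A330023F24Rik read 6.53 in control array 25 (6.82 to 6.88), and 1700086D15Rik read 5.5 in control array 27 (5.70 to 5.71). Gdap10 read 8.22 in muscle control array 41 (7.43 to 7.52).

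Differences in opposite directions, untested as differences, were seen for 2 containing genes. Nampt lay lower in all swim arrays of muscle (-0.16) and higher in those of subcutaneous fat, liver and kidney. Xkr6 lay lower in all swim arrays of subcutaneous fat (-0.70) and higher in those of brain.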

How the results depend on the processing

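No paired analysis was possible because the labels give every array a number of its own. With values as deposited, the number of the 10 transcripts that passed was 2 in subcutaneous fat, 1 in liver, 1 in kidney, 2 in spleen, 3 in brain and 1 in muscle. With 1 fit of all 54 arrays it was 8, 1, 5 and 1 in the first 4 of these tissues and 3 in muscle. With the signal range as a covariate it was 0 in spleen, 2 in brain and 3 in muscle, and without arrays 17, 22 and 23 it was 4 in subcutaneous fat. In subcutaneous fat such settings called 0 to 3607 of all genes as higher and 0 to 3019 as lower. Leaving out 1 array gave 8 to 9 in visceral fat, 0 to 5 in subcutaneous fat, 0 to 1 in liver, 8 to 9 in kidney, 3 to 4 in spleen, 3 to 7 in brain and 1 to 4 in muscle. Of 1041 changes of the transcripts under these settings 967 stayed within 1 SD, 74 moved by more, and none of a transcript that had passed turned its sign. With 1 array left out, signs turned in 6 of the 70 values, all of them unpassed: in liver 9530091C08Rik (-0.06), Lncpint (-0.06), Phxr4 (-0.01) and Mir505 (0.01), and in muscle Mir598 (0.04) and Gdap10 (to -0.07). Under the other settings they turned in 8, also unpassed: with values as deposited A330023F24Rik (-0.06), Gdap10 (-0.23) and Mir505 (-0.16) in spleen, Gdap10 in muscle (-0.19) and Mir598 in kidney (0.01), with the range as covariate Mir598 in spleen (-0.42) and visceral fat (-0.10), and Phxr4 in subcutaneous fat (-0.03) without the 3 arrays.

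Containing or overlapping genes that passed in visceral fat numbered 0 as deposited, 0 with arrays centred on their medians, 0 with the range as covariate, and 1 with a pseudocount of 1, without the filter and in 1 fit of all arrays. In subcutaneous fat there were 6 in 1 fit of all arrays and 3 without the 3 arrays, and in brain 1 in that fit. Kidney had 0 as deposited, 1 centred and 1 in 1 fit, and spleen 0 centred, 0 in 1 fit and 0 with the covariate. Muscle had 1 as deposited, 1 centred, 1 without the filter, 1 with the covariate and 0 in 1 fit. Leaving out 1 array gave 1 to 2 in visceral fat, 0 to 3 in subcutaneous fat, 0 to 1 in liver, 2 to 4 in kidney, 0 to 2 in spleen, 0 in brain and 0 to 2 in muscle. Centring turned Nfib (-0.03) and Sypl (-0.18) in visceral fat, and deposited values turned Sypl (-0.06). Pairs related within groups by Pearson numbered 3 in swim arrays, 9 as deposited and 2 without subcutaneous fat. Without 1 array the difference in signal range ran from -0.42 to -0.29 in spleen, and it no longer passed unadjusted without control array 25 (-0.39), 26, 27 or 28 (exact permutation p = 0.0571 for each). In brain it ranged from -0.37, without control array 36, to -0.21, and the first of these passed unadjusted. In liver it ranged from -0.24 to 0.03, the sign turning without control array 49, and in kidney from -0.03 to 0.14, turning without control array 10 and (-0.01) swim array 16. As deposited, the median change of all genes was -0.27 in spleen, -0.23 in muscle, -0.20 in brain, -0.10 in visceral fat and 0.11 in kidney and subcutaneous fat, and with arrays centred it was -0.22 in visceral fat. The share of higher genes among calls went from 48.4% to 13.4% centred in visceral fat, from 44.4% to 66.7% deposited and 26.3% centred in kidney, from 50.2% to 1.29% and 17.2% in spleen, from 89.3% to 100% and 68.9% in brain and from 50% to 22.6% and 23.7% in muscle. The cause of these shifts was not tested.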
